A study of Mus musculus with 26 samples.

Results

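Lines derived from granulocyte macrophage progenitors (GMP) of C57BL/6 mice, profiled at 48 h with or without doxycycline (dox), make up 7 of the 26 arrays of a mouse expression series. GEO's sample titles alone chose them, so no measured value entered the choice. The dox group holds 4 arrays, of lines B6-2, B6-3, F6-6 and B6-1, and the group without dox holds 3 arrays, of lines B6-2, B6-3 and F6-6. The line names therefore give 3 pairs, and the dox culture of line B6-1 has no partner. All 7 cultures had been immortalized in vitro and were collected from liquid medium. The title of the series names MLL-AF9, a fusion of the MLL (Kmt2a) and AF9 (Mllt3) genes found in acute myeloid leukaemia. Dox is known to switch such a fusion on in lines of this kind. Among the samples only immortalized lines are labelled with dox, so an effect of dox itself cannot be told apart from that of a fusion. The transgene, its promoter, the number of animals behind the lines and whether a line is 1 clone stay unnamed in the labels, as does the event from which the 48 h count. The p-values therefore measure the spread between samples within the groups of the series, pooled over all 26 arrays, and not that between animals. The other 19 arrays hold lines derived from long-term hematopoietic stem cells (LT-HSC) at 48 h and 72 h and sorted GMP and LT-HSC.

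GMP are bone marrow progenitors that give rise to neutrophils and to monocytes. On the way to a neutrophil, the primary granule proteins such as myeloperoxidase and elastase are made first, at the promyelocyte stage, and the proteins of the secondary and tertiary granules, such as lactoferrin, are made later. MLL fusion proteins keep part of the chromatin binding of MLL and recruit transcription elongation factors and the histone methyltransferase DOT1L. They are known to hold the Hoxa genes, Meis1 and other genes of immature cells active and to slow maturation along the neutrophil and monocyte paths.

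Expression was read as log2 probe set signals, 1 probe set for each of 19937 genes, and every value of a single gene given here is on that log2 scale. The values of a gene are listed in the line order B6-2, B6-3, F6-6 and B6-1 with dox and B6-2, B6-3 and F6-6 without dox. A difference is the dox mean minus the no-dox mean with the standard error (SE) of a limma fit of all 26 arrays, and a gene is said to rise or fall where the Benjamini-Hochberg adjusted p over all genes was under 0.05. Across genes, arrays of 1 group correlated with r between 0.9898 and 0.9952. On the first principal component of the 7 arrays, which held 53.9% of the variance, the dox arrays lay between -23.43 and -12.61 and the no-dox arrays between 15.68 and 32.88, with the no-dox array of line B6-3 farthest out. Line F6-6 stood apart from the other lines on the second component (16.1%), with and without dox.

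The arrays carried the markers of the labelled lineage. The GMP markers summed to 89.43 to 91.35 in dox arrays and 88.92 to 90.11 in no-dox arrays. Of these 10 genes 4 were called, among them Cd34, which rose, and Csf1r and Spi1, which fell. A sum hides such opposite changes, so near-equal sums do not mean unchanged markers. All 10 of the granulocyte-macrophage markers Mpo, Elane, Prtn3, Ctsg, Csf1r, Fcgr3, Cd34, Kit, Spi1 and Cebpa had a dox mean above the median of all probe sets (5.858), and 9 of 10 had a no-dox mean above it; the exception was Cd34. Other cell types were read with 7 marker lists, and none of the 10 measured T and NK cell genes had a mean above that median in either group. The summed log2 level of those 10 lay between 43.51 and 44.88 in dox arrays and between 43.66 and 44.22 in no-dox arrays. For 9 B cell genes the sums were 45.64 to 47.76 with dox and 45.19 to 46.25 without dox, for 8 erythroid genes 48.39 to 50.24 and 48.46 to 49.10, and for 8 megakaryocyte genes 44.27 to 45.11 and 45.16 to 45.65. Of 12 stromal and endothelial genes Pecam1, an adhesion molecule also of blood cells, rose by 0.73 ± 0.17 and Lepr fell by 0.31 ± 0.09, with sums of 62.46 to 63.98 with dox and 62.15 to 63.04 without dox. The Lepr call ended without the no-dox array of line B6-3 (adjusted p = 0.371) and without the dox array of line B6-2 (0.0855), F6-6 (0.0522) or B6-1 (0.0603). No gene called in this comparison belonged to the mast cell and basophil, eosinophil, megakaryocyte, erythroid, B cell or T and NK cell lists. Line B6-2 carried more of the mast cell and basophil signal than the others in both cultures: the summed level of 13 genes was 82.54 in its dox array and 86.64 in its no-dox array, against 73.65 to 73.99 in the other dox arrays and 73.85 to 74.23 in the other no-dox arrays. The 7 eosinophil genes behaved alike, with sums of 40.82 with dox and 46.46 without dox in line B6-2. The part of such cells in the results was not tested, and fewer cells of a type and less RNA per cell cannot be told apart in such bulk samples.

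With dox, 1146 genes rose (5.75% of those tested) and 1033 fell (5.18%), 2179 in all (10.9%), and 4196 genes had an unadjusted p under 0.05. The falls were the larger changes. Among called genes, 248 differed at least 2-fold (1.24%), of which 202 fell (1.01%) and 46 rose (0.231%); 49 fell and 5 rose at least 4-fold, and 14 fell and 1 rose at least 8-fold. The arrays of the groups did not overlap in 19.9% of all genes, with the dox arrays higher in 11.0% and lower in 8.92%. With line as a block 1027 genes rose (5.15%) and 1207 fell (6.05%), 11.2% in all. Of all genes tested 43.8% had the same sign in the 3 lines with both cultures; among the called genes 2163 of 2179 had, a count that the test itself favours. The number of calls rested in part on the no-dox array of line B6-3, without which 1224 genes were called (589 up and 635 down). Leaving out any other single array of the comparison gave 1808 to 2115 calls.

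**Figure D1:**
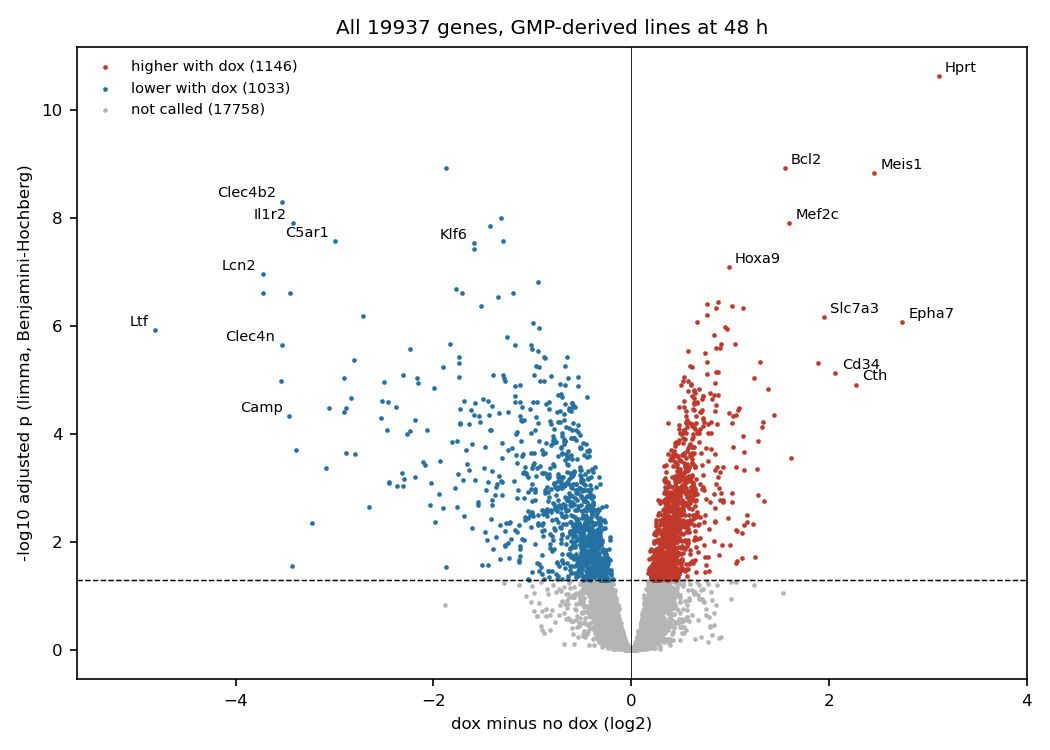
Each point is 1 of 19937 genes, with dox minus no dox in GMP-derived lines at 48 h (log2) on the x axis and -log10 of limma's adjusted p on the y axis; called genes are coloured by direction and the dashed line marks an adjusted p of 0.05. The left arm reaches -4.81 (Ltf) and the right arm 3.11 (Hprt), and more points lie beyond a 2-fold difference on the left.

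The lowest median of the 46 lists was that of late neutrophil genes. Of 30 measured genes of late granules and the mature neutrophil surface 22 fell and none rose, at a median difference of -1.66 against 0.014 over all genes tested. Ltf, which encodes lactoferrin, had 5.26, 5.65, 5.73 and 5.28 with dox, against 10.36, 10.27 and 10.26 without dox. The groups lay more than 4 log2 units apart, and Ltf fell by 4.81 ± 0.51 (28.1-fold, limma adjusted p = 1.21e-06). Lcn2, the iron-siderophore binding lipocalin of the secondary granules, had 5.76, 5.89, 6.34 and 6.19 with dox, against 9.78, 9.69 and 9.83 without dox, and fell by 3.73 ± 0.33 (adjusted p = 1.11e-07). Camp, the cathelicidin precursor, had 7.44, 7.60, 8.23 and 6.93 with dox, against 10.81, 10.98 and 11.23 without dox. It fell by 3.46 ± 0.50 (adjusted p = 4.72e-05), and line B6-1 was the lowest of the dox arrays. Ngp, the neutrophilic granule protein, had 8.82, 8.73, 9.91 and 8.69 with dox, against 11.62, 11.69 and 11.76 without dox, and fell by 2.65 ± 0.56; line F6-6 kept the highest dox level. Of the other members, Ceacam10 fell by 3.39 ± 0.56, the chitinase-like protein gene Chil3 by 3.45 ± 0.33, the surface marker Ly6g by 2.53 ± 0.37 and the collagenase gene Mmp8 by 1.99 ± 0.45. Mmp8 was lowest in the dox array of line F6-6 (7.30, against 8.91 to 9.90 in the other dox arrays). The 8 members that did not pass were Retnlg, S100a8, Il1b, Cd33, Hp, Trem3, Mmp25 and Mmp9, with differences between -0.95 (Retnlg) and -0.15 (Mmp9). Without the dox array of line F6-6 Cd33 passed (adjusted p = 0.00512), and without the no-dox array of that line so did Il1b (adjusted p = 0.0445). With line as a block Il1b and Trem3 passed (adjusted p = 0.0162 and 0.0071). S100a8 and S100a9 encode the subunits of calprotectin; S100a9 fell by 1.45 ± 0.36 and S100a8 differed by -0.93 ± 0.38 (adjusted p = 0.134), with no overlap between the groups.

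**Figure D2:**
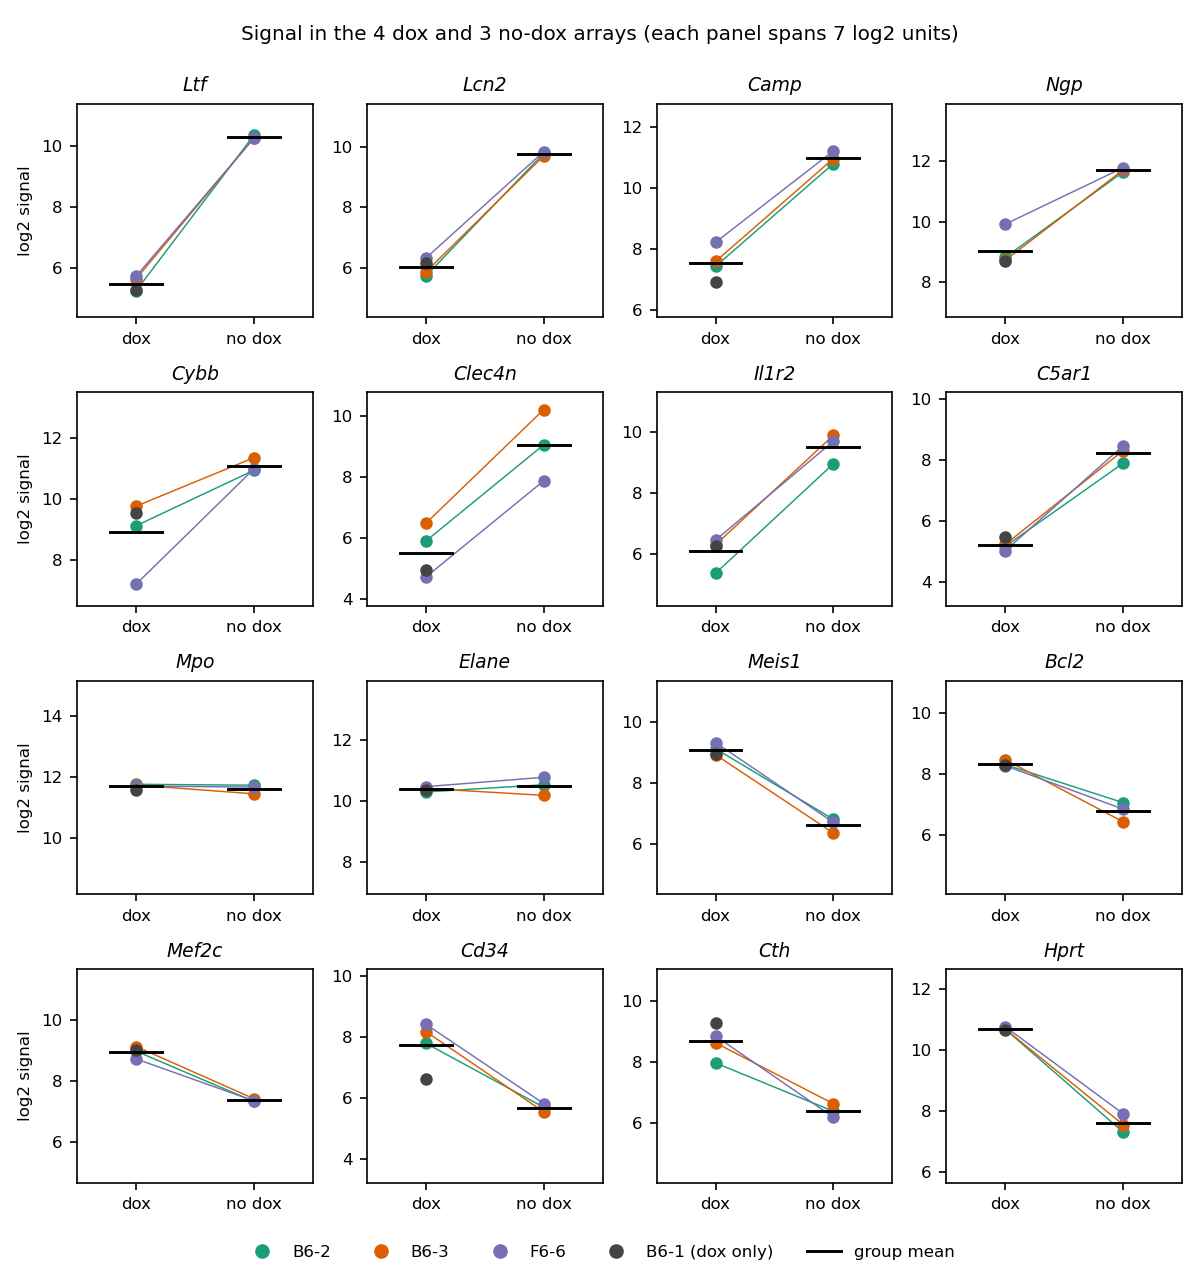
Log2 signal of 16 genes in the 7 arrays, with dox on the left and without dox on the right of each panel; colours mark the lines, thin lines join the 2 cultures of a line and short bars give group means. Ltf, Lcn2, Camp, Ngp, Cybb, Clec4n, Il1r2 and C5ar1 lie lower in every dox array, Mpo and Elane overlap, and Meis1, Bcl2, Mef2c, Cd34, Cth and Hprt lie higher in every dox array.

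The start regions of 3 of these genes are shown because they carry a motif that the granule factors of the C/EBP family are known to bind. They are 280 bases from RefSeq's promoter windows on GRCm38.p6, from 250 before to 30 after the gene's start and in the direction of the gene, with matches to TTNNGCAA (or TTGCNNAA on the other strand; N is any base) in capitals. Ltf lies at chr9:111019042-111019321, plus strand, Lcn2 at chr2:32387710-32387989, minus strand, and Ngp at chr9:110419558-110419837, plus strand.
Ltf: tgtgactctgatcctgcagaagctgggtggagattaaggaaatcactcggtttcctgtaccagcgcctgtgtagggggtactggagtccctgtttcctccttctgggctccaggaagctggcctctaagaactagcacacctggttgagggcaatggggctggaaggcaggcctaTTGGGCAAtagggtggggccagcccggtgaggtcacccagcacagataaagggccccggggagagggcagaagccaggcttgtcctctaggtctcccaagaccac
Lcn2: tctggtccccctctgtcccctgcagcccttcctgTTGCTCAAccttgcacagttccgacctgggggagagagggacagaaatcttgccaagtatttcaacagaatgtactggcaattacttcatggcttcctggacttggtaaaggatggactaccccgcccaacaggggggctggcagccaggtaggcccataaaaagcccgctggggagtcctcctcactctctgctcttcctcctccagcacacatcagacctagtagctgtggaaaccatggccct
Ngp: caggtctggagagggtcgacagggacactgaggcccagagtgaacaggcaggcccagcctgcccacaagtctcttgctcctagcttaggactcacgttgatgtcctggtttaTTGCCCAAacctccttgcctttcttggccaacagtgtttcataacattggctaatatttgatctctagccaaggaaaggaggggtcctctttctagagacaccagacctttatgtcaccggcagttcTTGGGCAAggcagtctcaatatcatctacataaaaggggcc
Windows of 250 bases before to 50 after the start were searched. These letters stood in 8 of the 26 late neutrophil genes with a window (30.8%). Over all 27025 genes with a window the share was 12.2%. Of the 8 genes 7 fell, beside 22 of all 30 on the list. Overlap with the other motifs searched was not counted, and a match is a description of the letters only.

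Most early granule genes did not pass the test, though a larger share fell than over all genes (5.18%). Of 16 measured primary granule genes 5 fell and none rose (median -0.14), and 12 were lower with dox. Mpo, myeloperoxidase, had 11.75, 11.72, 11.69 and 11.57 with dox, against 11.72, 11.43 and 11.65 without dox, and the groups overlapped (0.08 ± 0.16, adjusted p = 0.88). Elane, neutrophil elastase, had 10.30, 10.42, 10.48 and 10.38 with dox, against 10.54, 10.19 and 10.78 without dox, and these overlapped too (-0.11 ± 0.16, adjusted p = 0.816). The protease genes Prtn3 (-0.13 ± 0.15) and Ctsg (0.39 ± 0.17) and the GMP marker Ms4a3 (-0.09 ± 0.18) did not pass either. The 95% interval of the difference ran from -0.25 to 0.41 for Mpo and from -0.45 to 0.22 for Elane. The 5 that fell were Fcnb (ficolin B, a pattern receptor of granules, -2.71 ± 0.28), Clec5a (-1.73 ± 0.24), Ctsc (cathepsin C, which activates the granule proteases, -1.30 ± 0.22), Igsf6 (-0.59 ± 0.12) and Serpinb1a (-0.38 ± 0.12). The call of Serpinb1a ended without any 1 of 5 arrays, the 3 no-dox arrays and the dox arrays of lines F6-6 and B6-1 (adjusted p between 0.0932 and 0.14), and with line as a block (0.1).

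Genes of the phagocyte oxidase, which makes superoxide against microbes, fell in 4 of 5 measured cases (median -0.56). Cybb, the catalytic membrane subunit, had 9.14, 9.78, 7.22 and 9.54 with dox, against 10.96, 11.37 and 11.00 without dox. All dox arrays lay below all no-dox arrays, with line F6-6 lowest, and the fall was 2.19 ± 0.40 (adjusted p = 0.000621). The cytosolic subunits Ncf4 and Ncf1 fell by 0.81 ± 0.12 and 0.56 ± 0.11, and Cyba, the partner of Cybb in the membrane, by 0.52 ± 0.13; the call of Cyba ended without the no-dox array of line B6-3 (adjusted p = 0.0546). Rac2, the small GTPase of the complex, differed by -0.19 ± 0.11 (adjusted p = 0.328).

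Monocyte and macrophage genes fell in 15 of 23 measured cases and rose in none (median -0.76). Without the no-dox array of line B6-3, 9 of the 23 fell. Mrc1, the mannose receptor of macrophages, had 5.89, 6.65, 4.89 and 5.62 with dox, against 8.09, 9.30 and 7.0 without dox, and fell by 2.37 ± 0.45 (adjusted p = 0.000917). Within the lines the differences in Mrc1 were -2.21, -2.65 and -2.11 for B6-2, B6-3 and F6-6. Tgfbi, a secreted matrix protein of monocytes, had 6.80, 7.47, 6.34 and 7.17 with dox, against 9.33, 9.82 and 8.40 without dox, and fell by 2.23 ± 0.25. The highest levels of both genes without dox were in line B6-3 and the lowest in line F6-6, and the dox arrays kept that order. The IgG receptor gene Fcgr1 fell by 1.42 ± 0.32, the macrophage surface gene Adgre1 by 1.37 ± 0.27 and the integrin gene Itgam by 1.34 ± 0.19. Irf8, a factor needed for monocyte fate (0.24 ± 0.18), Ly86 (0.01 ± 0.41) and Cx3cr1 (-0.12 ± 0.12) did not pass.

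Myeloid C-type lectin receptors, which bind sugars of microbes, fell in 7 of 11 measured cases (median -1.09). Clec4n, a receptor for fungal mannans, had 5.90, 6.48, 4.72 and 4.95 with dox, against 9.05, 10.21 and 7.87 without dox. It fell by 3.53 ± 0.39 (11.6-fold, adjusted p = 2.28e-06), with no overlap. The neighbours in the same gene family Clec4a3, Clec4a1, Clec4a2 and Clec4d fell too, with differences of -2.83 ± 0.38, -2.51 ± 0.34, -1.69 ± 0.23 and -1.61 ± 0.26; these copies are alike in sequence, and sharing of probes between them was not analysed. Clec7a, the receptor for beta-glucans, fell by 1.09 ± 0.27, a call that ended without the no-dox array of line B6-3 (adjusted p = 0.0666). None of 7 measured MHC class II genes was called (median -0.01), though 1 rose without the dox array of line B6-2.

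Receptors through which myeloid cells sense cytokines fell widely. Of 21 measured cytokine receptors 13 fell and none rose (median -0.55), and 6 fell without the no-dox array of line B6-3 and 8 without that of line B6-2 or the dox array of line F6-6. Il1r2, a decoy receptor that binds interleukin 1 without signalling, had 5.36, 6.29, 6.44 and 6.24 with dox, against 8.95, 9.88 and 9.69 without dox. It fell by 3.42 ± 0.27 (10.7-fold, adjusted p = 1.24e-08), the groups being more than 2 log2 units apart. Csf2rb, the signalling chain shared by the receptors of GM-CSF and IL3, had 8.13, 8.42, 7.86 and 8.31 with dox, against 9.29, 9.57 and 9.0 without dox, and fell by 1.11 ± 0.19. Csf3r, the receptor of the neutrophil growth factor G-CSF, had 6.43, 6.59, 6.58 and 6.28 with dox, against 7.13, 7.15 and 7.22 without dox, and fell by 0.70 ± 0.11. In both, the groups did not overlap. The stem cell factor receptor Kit (0.13 ± 0.16), Flt3 (0.51 ± 0.27) and the alpha chain Il3ra (0.06 ± 0.08) did not pass, although Flt3 did with line as a block (adjusted p = 0.0384). Csf1r, the receptor of the macrophage growth factor, fell by 0.88 ± 0.28 at an adjusted p of 0.0486; the groups overlapped, and the call ended without the no-dox array of line B6-3 (adjusted p = 0.359) or B6-2 (0.0762) and without the dox array of line F6-6 (0.194) or B6-2 (0.0777).

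Receptors for chemoattractants and microbial products also fell. The chemokine receptors Ccr1 and Cxcr2 fell by 2.80 ± 0.33 and 2.19 ± 0.32, the only 2 of 9 that passed, while Ccr2 (-0.56 ± 0.25) and Cxcr4 (-0.18 ± 0.09) did not; with line as a block Ccr2 had an adjusted p of 0.035. C5ar1, the receptor of the complement fragment C5a, had 5.18, 5.24, 5.04 and 5.49 with dox, against 7.90, 8.32 and 8.48 without dox, and fell by 3.0 ± 0.25 (7.97-fold). Of 12 measured Toll-like receptor genes and partners 8 fell (median -0.71), and 5 without the no-dox array of line B6-3. Tlr13, a sensor of bacterial ribosomal RNA, had 6.07, 6.27, 5.10 and 6.22 with dox, against 8.04, 8.65 and 6.88 without dox, and fell by 1.94 ± 0.39. Tlr8 and Tlr7, sensors of single-stranded RNA, fell by 1.62 ± 0.23 and 1.41 ± 0.29, to dox levels below the median of all probe sets. Whether such dim signals lie above background was not analysed, so the size of a change is uncertain there, as for every gene with a group mean below that median, among them Ltf, Ifitm6, C5ar1, Clec4n, Cd34 and Epha7. The integrin subunit genes Itgam and Itgb2, which form the complement receptor of phagocytes, fell by 1.34 ± 0.19 and 0.73 ± 0.14, and Itga6, the laminin receptor subunit of progenitors, rose by 0.57 ± 0.09.

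**Figure D3:**
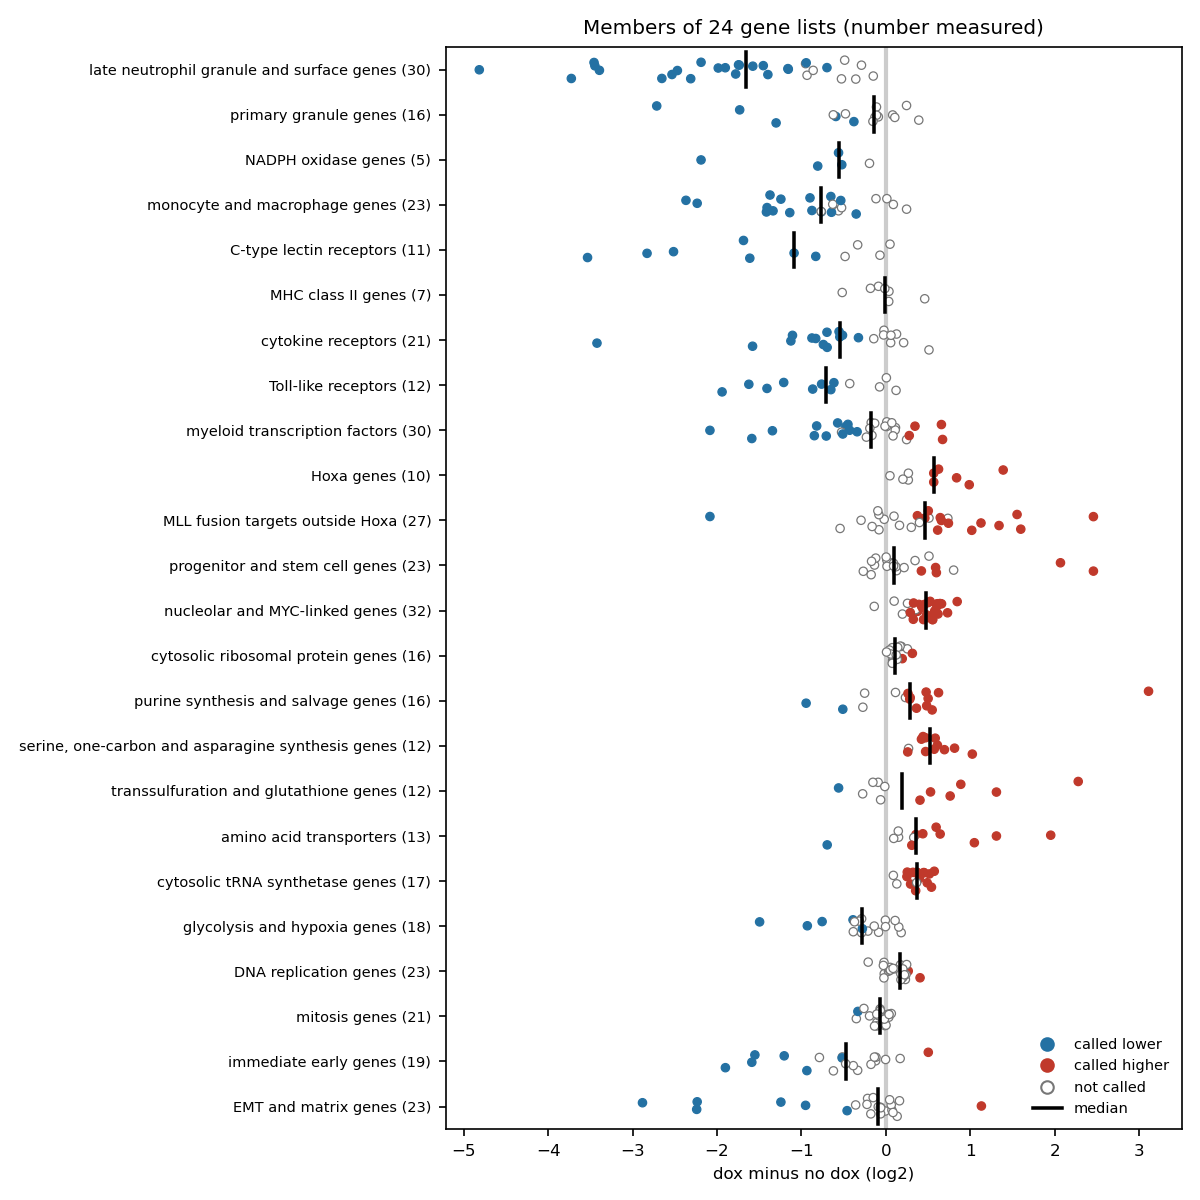
Dox minus no dox (log2) of every measured member of 24 gene lists, 1 row per list, with called genes filled and the median as a vertical tick; the shaded line marks 0. Late neutrophil, monocyte, C-type lectin, cytokine receptor and Toll-like receptor rows lie to the left, Hoxa, nucleolar, serine, transporter and tRNA synthetase rows to the right, and mitosis and MHC class II rows around 0.

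Transcription factors of the myeloid lineage moved in both directions. Of 30 measured 12 fell and 4 rose (median -0.18), and 6 fell without the no-dox array of line B6-3. Id2, which blocks DNA binding by E proteins, had 6.74, 7.13, 5.11 and 6.39 with dox, against 8.28, 9.23 and 7.77 without dox. It fell by 2.08 ± 0.36 (adjusted p = 0.000376), and line F6-6 was the lowest. Klf6 had 6.87, 6.97, 6.43 and 6.75 with dox, against 8.13, 8.59 and 8.30 without dox, and fell by 1.59 ± 0.13 (adjusted p = 2.97e-08), with more than 1 log2 unit between the groups. Cebpe, which drives the secondary granule genes, had 7.53, 7.39, 7.75 and 7.52 with dox, against 8.08, 8.45 and 8.58 without dox, and fell by 0.82 ± 0.12. Ets1 fell by 1.34 ± 0.13, Irf5 by 0.71 ± 0.15 and Spi1, a master factor of myeloid cells, by 0.47 ± 0.13. The call of Spi1 ended without the no-dox array of line B6-3 (adjusted p = 0.139) or the dox array of line F6-6 (0.0544). Cebpa (0.11 ± 0.16) and Gfi1 (0.01 ± 0.09), which act earlier in the neutrophil path, did not pass. The 4 that rose were Elf1, Myb, Tcf12 and Etv6. Myb, a factor of immature and leukaemic blood cells, had 10.00, 10.02, 10.05 and 9.81 with dox, against 9.46, 8.97 and 9.51 without dox, and rose by 0.66 ± 0.12 (adjusted p = 0.000665). Elf1 rose by 0.67 ± 0.07 without overlap. The call of Etv6 ended without the no-dox array of line B6-3 (adjusted p = 0.174) or the dox arrays of lines B6-3 (0.0519) or F6-6 (0.0722).

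The Hoxa genes, targets of MLL and its fusions, rose in 6 of 10 measured cases and fell in none (median 0.57). Hoxa5 rose most, with 7.84, 7.81, 7.91 and 7.53 with dox, against 6.57, 6.28 and 6.30 without dox, a rise of 1.39 ± 0.18 (adjusted p = 1.44e-05). Hoxa9, the member most tied to leukaemia, had 7.57, 7.44, 7.46 and 7.46 with dox, against 6.65, 6.31 and 6.54 without dox. The dox arrays lay close together and above all no-dox arrays, and Hoxa9 rose by 0.99 ± 0.09 (adjusted p = 8.11e-08). Hoxa10, Hoxa3, Hoxa7 and Hoxa6 rose by 0.84 ± 0.11, 0.62 ± 0.12, 0.57 ± 0.08 and 0.57 ± 0.10. Hoxa2 (0.27 ± 0.12), Hoxa4 (0.27 ± 0.15), Hoxa11 (0.20 ± 0.14) and Hoxa13 (0.05 ± 0.10) did not pass.

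Of 27 other known MLL fusion targets 13 rose and 1 fell (median 0.46). Meis1, the DNA-binding partner of Hoxa9, had 9.13, 8.93, 9.33 and 8.95 with dox, against 6.81, 6.36 and 6.71 without dox. It rose by 2.46 ± 0.17 (5.49-fold, adjusted p = 1.51e-09), and the differences within lines were 2.32, 2.57 and 2.62. Mef2c, a factor of lymphoid and myeloid progenitors, had 8.97, 9.12, 8.71 and 9.01 with dox, against 7.32, 7.41 and 7.34 without dox, and rose by 1.60 ± 0.12. Bcl2, which protects cells from apoptosis, had 8.32, 8.48, 8.28 and 8.29 with dox, against 7.07, 6.44 and 6.85 without dox, and rose by 1.55 ± 0.10. In these 3 genes the groups lay more than 1 log2 unit apart. The transcriptional coactivator Eya1 rose by 1.34 ± 0.28 with a wide spread, from 7.65 in line B6-1 to 9.06 in line F6-6 among the dox arrays. Mylk, myosin light chain kinase, rose by 1.02 ± 0.21, Cdk6 by 0.74 ± 0.11, the homeobox gene Six4 by 0.64 ± 0.11 and the histone demethylase gene Jmjd1c by 0.61 ± 0.07. Id2, also on this list, was the 1 that fell; without the dox array of line F6-6, 2 fell.

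Some targets differed more between lines than with dox. Pbx3, a partner of Hox proteins, had 7.69, 7.37, 8.71 and 6.47 with dox, against 6.75, 6.38 and 7.34 without dox, so that the groups overlapped (0.73 ± 0.29, adjusted p = 0.127); within the lines it was higher with dox by 0.93, 0.98 and 1.37, and with line as a block the adjusted p was 2.14e-07. Satb1, a chromatin organiser, had 8.99, 9.31, 6.56 and 6.24 with dox, against 7.92, 8.20 and 6.02 without dox. It was high in lines B6-2 and B6-3 and low in F6-6 and B6-1, the differences within lines were 1.07, 1.11 and 0.54, and the adjusted p was 0.8 without the block and 0.000296 with it.

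Neither partner gene of the fusion was called. Kmt2a had 8.63, 8.68, 8.83 and 8.49 with dox, against 8.51, 8.61 and 8.59 without dox (0.09 ± 0.08, adjusted p = 0.63), and Mllt3 had 7.56, 7.60, 7.35 and 7.87 with dox, against 7.45, 7.38 and 7.07 without dox (0.29 ± 0.12, adjusted p = 0.123); in both the groups overlapped. Whether these probe sets read the fusion transcript was not analysed. Without the dox array of line F6-6 Mllt3 passed (adjusted p = 0.0451). Of 19 genes of MLL and its cofactors, 1 rose (Mllt1, by 0.34 ± 0.08), near the 5.75% of all genes, and none fell (median 0.09). Without the no-dox array of line F6-6 3 rose, and without the dox arrays of lines B6-3, F6-6 or B6-1 2 rose. The menin gene Men1 did not pass (-0.10 ± 0.09).

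Of 23 measured progenitor and stem cell genes 5 rose and none fell (median 0.09). Cd34, the sialomucin that marks progenitors, had 7.78, 8.17, 8.41 and 6.61 with dox, against 5.68, 5.53 and 5.80 without dox. It rose by 2.07 ± 0.25 (4.19-fold, adjusted p = 7.51e-06), and the unpaired line B6-1 was lowest of the dox arrays by more than 1 log2 unit. Msi2, an RNA-binding protein of stem cells, rose by 0.60 ± 0.12, Gimap6 by 0.59 ± 0.12 and Cd27 by 0.42 ± 0.13; Meis1 was the fifth. The call of Cd27 ended without any 1 of 6 arrays (all but the dox array of line B6-1; adjusted p between 0.0673 and 0.155). Mecom, a stem cell factor, had 5.26, 4.43, 4.32 and 4.68 with dox, against 4.68, 4.48 and 4.50 without dox, all below the median of all probe sets (0.12 ± 0.22, adjusted p = 0.871). Erg (0.22 ± 0.15), Hlf (-0.27 ± 0.10) and Procr (-0.12 ± 0.10) did not pass. With line as a block 8 of the 23 rose, among them Erg (adjusted p = 0.0181) and Angpt1 (4.1e-05), whose dox levels ran from 4.31 in line B6-1 to 7.11 in line B6-2.

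Genes of ribosome assembly in the nucleolus rose in small steps. Of 32 measured nucleolar and MYC-linked genes 27 rose and none fell (median 0.47), and 19 rose without the no-dox array of line B6-3, the array with the lowest median over these genes (8.12 among the 32). Wdr12, needed for the large ribosomal subunit, had 9.98, 9.73, 9.86 and 9.90 with dox, against 9.15, 8.72 and 9.20 without dox, and rose by 0.84 ± 0.12 (adjusted p = 3.7e-05). Nop56, a core protein of the methylation-guiding snoRNA particles, had 10.18, 10.26, 10.30 and 10.39 with dox, against 9.64, 9.15 and 9.87 without dox, and rose by 0.73 ± 0.11. Gnl3, nucleostemin, had 10.25, 10.12, 10.25 and 10.27 with dox, against 9.56, 9.30 and 9.82 without dox, and rose by 0.66 ± 0.10. In all 3 the groups did not overlap and the no-dox array of line B6-3 was the lowest. Polr1a and Polr1c, subunits of RNA polymerase I, rose by 0.55 ± 0.08 and 0.52 ± 0.07, Dkc1 by 0.61 ± 0.11 and Npm1 by 0.33 ± 0.07. Myc itself had 10.07, 10.35, 10.49 and 10.23 with dox, against 9.71, 9.50 and 10.15 without dox; it rose by 0.50 ± 0.11 (adjusted p = 0.0032), and the groups overlapped, since line F6-6 without dox was above line B6-2 with dox. The call of Myc ended without the no-dox array of line B6-3 (adjusted p = 0.0578). Of 16 ribosomal protein genes 2 rose and none fell (median 0.11), and 1 rose without the no-dox array of line B6-2 or F6-6.

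The letters CACGTG, which read the same on both strands, are the E-box that MYC and related factors are known to bind. They stood in the window of 6 of 25 nucleolar and MYC-linked genes with one (24%), against 8.09% of all genes with a window. Of the 6, among them Ldha, 4 rose, beside 27 of all 32 on the list. The list was chosen to hold MYC-linked genes, so the share is no independent evidence.

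Purine synthesis genes rose in 10 of 16 measured cases and fell in 2 (median 0.28). Hprt, which salvages hypoxanthine and guanine, had 10.69, 10.69, 10.77 and 10.67 with dox, against 7.31, 7.56 and 7.92 without dox. It rose by 3.11 ± 0.16 (8.63-fold, adjusted p = 2.36e-11), the largest increase of all genes tested, and the dox arrays lay close together. Its neighbours on the X chromosome did not share a change of this size: Ccdc160 on one side differed by 0.04 ± 0.10 and Gpc3 beyond it by less than its SE of 0.10, and Plac1, Fam122b and Fam122c on the other by 0.18 ± 0.09, 0.12 ± 0.13 and -0.02 ± 0.10, none of them called. Phf6, the nearest gene before Hprt in that order, rose by 0.57 ± 0.09 (adjusted p = 0.000185). Along the synthesis path, Prps2 and Prps1, which make the activated ribose, rose by 0.62 ± 0.11 and 0.48 ± 0.10, Ppat, the first committed step, by 0.55 ± 0.10, and Gart by 0.48 ± 0.09. Those that fell act in breakdown: Xdh, xanthine dehydrogenase, fell by 0.94 ± 0.21 and Pnp by 0.51 ± 0.10. The call of Xdh ended without the no-dox array of line B6-3 (adjusted p = 0.0571), which left Pnp as the 1 that fell.

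Genes of amino acid supply rose more often than they fell, list by list. Of 12 measured serine, one-carbon and asparagine synthesis genes 11 rose and none fell (median 0.52), and 7 rose without the no-dox array of line B6-3. Aldh1l2, a mitochondrial folate enzyme, had 6.09, 6.50, 5.79 and 6.45 with dox, against 5.17, 5.15 and 5.23 without dox, and rose by 1.02 ± 0.15 (adjusted p = 6.31e-05). Shmt2, mitochondrial serine hydroxymethyltransferase, had 9.47, 9.48, 9.38 and 9.66 with dox, against 8.72, 8.52 and 8.82 without dox, and rose by 0.81 ± 0.13. Asns, asparagine synthetase, had 10.50, 10.72, 10.62 and 10.83 with dox, against 10.09, 10.04 and 10.16 without dox, and rose by 0.57 ± 0.10. No dox array of these 3 genes overlapped a no-dox array. The serine path enzymes Psat1 and Phgdh rose by 0.61 ± 0.08 and 0.58 ± 0.13. Shmt1, the cytosolic form, did not pass (0.27 ± 0.13).

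Of 12 measured transsulfuration and glutathione genes 6 rose and 1 fell (median 0.20), and the 5 that were not called were lower with dox. Cth, cystathionine gamma-lyase, which makes cysteine, had 7.98, 8.64, 8.86 and 9.27 with dox, against 6.39, 6.64 and 6.20 without dox. It rose by 2.28 ± 0.29 (4.85-fold, adjusted p = 1.21e-05), and the dox arrays spread over more than 1 log2 unit with line B6-1 highest. Cbs, the enzyme before it in the path, did not pass (-0.09 ± 0.08). Gclc, the first step of glutathione synthesis, rose by 0.40 ± 0.10, a call that ended without the no-dox array of line B6-3 (adjusted p = 0.0653). Gsr, which reduces oxidised glutathione, fell by 0.56 ± 0.09.

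Of 13 amino acid transporters 8 rose and 1 fell (median 0.36). Slc7a3, a carrier of arginine and lysine, had 6.46, 7.13, 7.52 and 7.33 with dox, against 5.04, 5.24 and 5.20 without dox, and rose by 1.95 ± 0.20 (adjusted p = 6.74e-07). Slc7a11, which exchanges cystine for glutamate, had 7.39, 7.67, 7.68 and 8.06 with dox, against 6.14, 6.37 and 6.67 without dox, and rose by 1.31 ± 0.15. Slc1a4, a carrier of neutral amino acids, had 5.92, 5.76, 6.10 and 6.41 with dox, against 5.04, 5.08 and 4.88 without dox, and rose by 1.05 ± 0.12. In all 3 the groups were more than 0.5 log2 units apart. Slc36a4 fell by 0.70 ± 0.19, a call that ended without the no-dox array of line F6-6 (adjusted p = 0.154) or the dox array of line B6-2 (adjusted p = 0.0519). Slc38a2, a carrier of neutral amino acids, did not pass (0.09 ± 0.09).

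Cytosolic tRNA synthetases, which load tRNAs with amino acids, rose in 14 of 17 measured cases and fell in none (median 0.36). Lars, the leucine enzyme, had 10.30, 10.31, 10.37 and 10.44 with dox, against 9.83, 9.68 and 9.84 without dox, and rose by 0.57 ± 0.07 (adjusted p = 1.06e-05). Yars, Iars and Eprs rose by 0.54 ± 0.09, 0.52 ± 0.10 and 0.49 ± 0.07. Many of these genes are known targets of Atf4, the factor of the amino acid response. Of 15 regulators and effectors of that response 2 rose and none fell (median 0.16). The part of Atf4 in these changes was not tested. Atf4 differed by 0.18 ± 0.08 (adjusted p = 0.164) with no overlap between the groups and Trib3 by 0.05 ± 0.09. The 2 that rose, Chac1 by 0.53 ± 0.16 and Ddit3 by 0.28 ± 0.08, lost their calls without the no-dox array of line B6-3 (adjusted p = 0.109 and 0.151) and without other single arrays. With line as a block Ddit3 had an adjusted p of 0.0869.

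The windows of 3 of these genes are shown for TGATGNAA (or TTNCATCA on the other strand; N is any base), a form of the element that Atf4 and its C/EBP partners are known to bind, in capitals. They are again 280 bases from RefSeq's windows on GRCm38.p6 in the direction of the gene. Slc7a11 lies at chr3:50443584-50443863, minus strand, Slc1a4 at chr11:20332684-20332963, minus strand, and Asns at chr6:7693180-7693459, minus strand.
Slc7a11: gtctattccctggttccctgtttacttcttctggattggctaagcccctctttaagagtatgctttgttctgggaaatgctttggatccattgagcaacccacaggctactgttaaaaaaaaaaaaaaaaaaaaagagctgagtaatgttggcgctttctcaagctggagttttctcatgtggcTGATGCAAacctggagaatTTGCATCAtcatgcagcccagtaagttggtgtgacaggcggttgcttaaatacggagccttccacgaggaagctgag
Slc1a4: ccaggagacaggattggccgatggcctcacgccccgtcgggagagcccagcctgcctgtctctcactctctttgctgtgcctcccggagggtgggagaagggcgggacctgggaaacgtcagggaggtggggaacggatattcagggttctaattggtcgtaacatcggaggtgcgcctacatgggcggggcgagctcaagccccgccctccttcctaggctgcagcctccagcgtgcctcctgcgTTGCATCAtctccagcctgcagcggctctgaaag
Asns: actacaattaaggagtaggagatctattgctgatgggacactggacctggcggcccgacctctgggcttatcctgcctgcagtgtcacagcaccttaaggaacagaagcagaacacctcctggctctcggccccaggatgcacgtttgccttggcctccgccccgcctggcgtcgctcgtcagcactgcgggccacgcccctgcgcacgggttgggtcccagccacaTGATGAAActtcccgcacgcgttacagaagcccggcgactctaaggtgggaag
Of the 53 measured genes of the serine, glutathione, transporter and tRNA synthetase lists, 37 had a window and 9 of these held the motif (24.3%), against 4.51% of the 27025 genes with a window. All 9 had been called up: Asns, Chac1, Gars, Got1, Iars, Slc1a4, Slc7a11, Tars and Yars. Rises were common over the whole lists: 11 of 12 serine, 6 of 12 glutathione, 8 of 13 transporter and 14 of 17 tRNA synthetase genes. Slc7a11 is on the glutathione and the transporter list. Many genes of these lists are known targets of Atf4, so the share is no independent evidence. A link between the motif and the rises was not tested. The calls of Got1 and Chac1 ended without the no-dox array of line B6-3 (adjusted p = 0.109 in both) and without other single arrays, and that of Got1 with line as a block (0.0835).

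**Figure D4:**
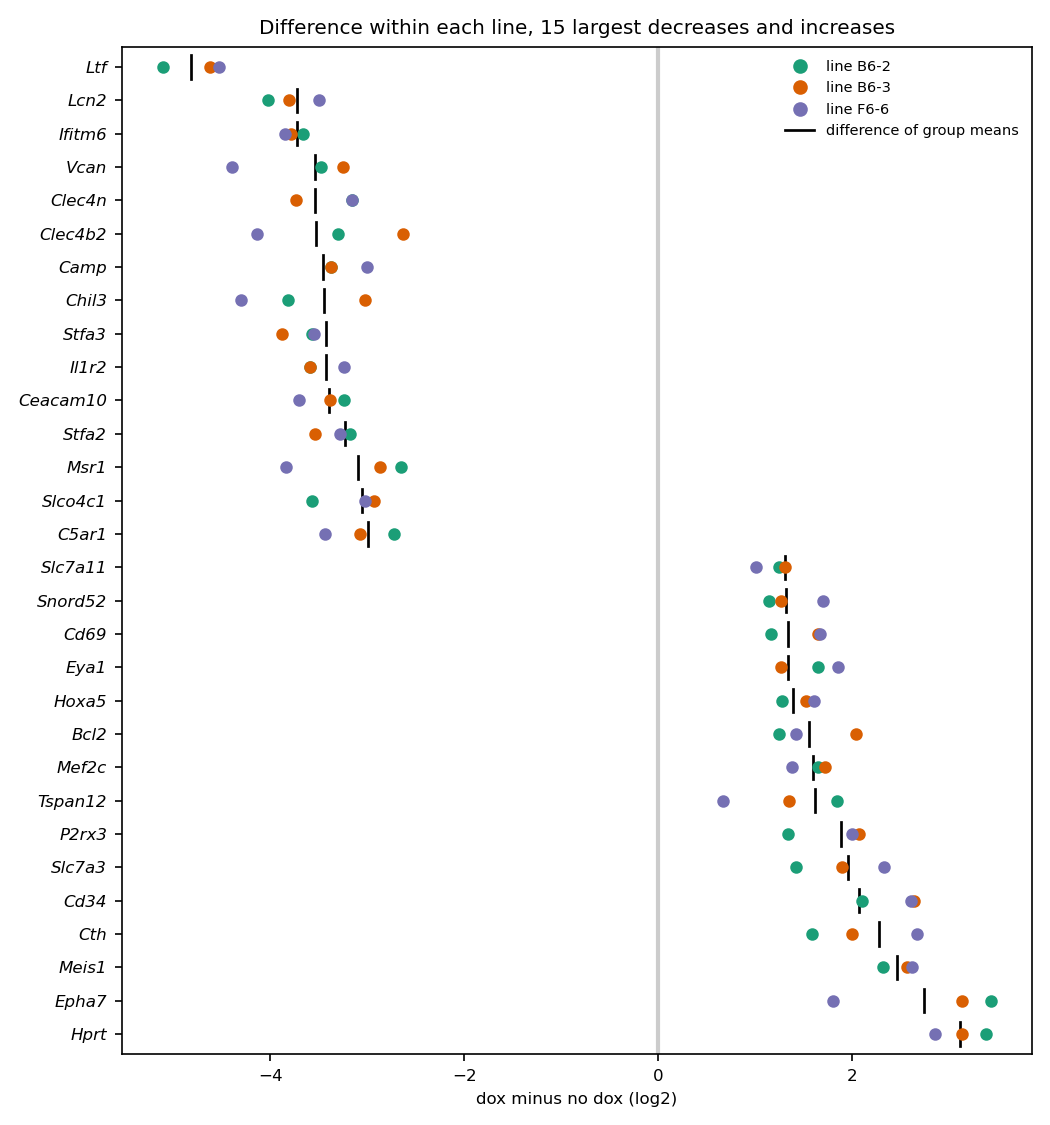
Dox minus no dox (log2) within lines B6-2, B6-3 and F6-6 for the 15 largest increases and 15 largest decreases, 1 row per gene, with a short bar at the difference of the group means. All 3 lines lie on the same side of 0 in every row, which the choice of these genes required.

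Regulators of G1 were called more often than all genes, of which 5.75% rose and 5.18% fell. The rises among replication genes and the falls among mitosis genes lay near those shares. Of the D and E cyclins, their kinases and inhibitors 4 of 15 rose and 3 fell. Cdkn2c, an inhibitor of Cdk4 and Cdk6, rose by 1.07 ± 0.19, and so did Cdk6 by 0.74 ± 0.11, Ccnd2 by 0.73 ± 0.13 and Cdk4 by 0.42 ± 0.07. The retinoblastoma gene Rb1 had 8.45, 8.53, 8.56 and 8.60 with dox, against 9.09, 9.19 and 9.10 without dox, and fell by 0.59 ± 0.11; Cdkn2d fell by 0.58 ± 0.09. Replication genes rose in 2 of 23 cases (median 0.17), a count that lay between 0 (without the no-dox array of line B6-3) and 4 (without that of line F6-6). Mitosis genes fell in 1 of 21 cases (median -0.07), the proliferation marker Mki67 by 0.33 ± 0.10; 2 fell without the dox array of line B6-3, and none without the dox array of line B6-2 or F6-6 or without any 1 of the no-dox arrays. Top2a (-0.02 ± 0.09), Cdk1 (0.00 ± 0.09), Pcna (-0.02 ± 0.09) and Aurka (0.03 ± 0.12) did not pass. Of 12 BCL2 family genes, Bcl2 rose, while Mcl1 fell by 0.56 ± 0.11 and the death activator Bcl2l11 fell by 0.49 ± 0.13, a call that ended without the no-dox array of line B6-3 (adjusted p = 0.138); without the no-dox array of line F6-6 2 of the family rose. Mcl1 had 9.42, 9.52, 9.37 and 9.59 with dox, against 9.99, 10.37 and 9.75 without dox. Of 13 p53 targets 1 rose and 3 fell (median -0.03), and without the no-dox array of line B6-3 1 fell and none rose; 2 rose without the dox array of line B6-2 or the no-dox array of line F6-6. Trp53inp1 fell by 0.90 ± 0.16.

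Immediate early genes, which respond to growth signals and to handling, fell in 6 of 19 cases and rose in 1, Myc (median -0.48). Without the no-dox array of line B6-3 4 fell, none rose and the median was -0.21. Egr2 had 6.25, 6.49, 6.08 and 5.87 with dox, against 8.22, 9.38 and 6.63 without dox, and fell by 1.90 ± 0.40 (adjusted p = 0.00235). Its no-dox levels spread over more than 2 log2 units, with line B6-3 highest and F6-6 lowest. Btg2, an antiproliferative gene, fell by 1.55 ± 0.32 and Ier3 by 1.20 ± 0.20. Fos (-0.52 ± 0.20) and Egr1 (-0.79 ± 0.27) did not pass, but passed without the no-dox array of line F6-6 (adjusted p = 0.00141 and 0.0009). In that line Fos differed by 0.06 and Egr1 by -0.05. Without that array 11 of the 19 fell, as they did with line as a block, Egr1 included (adjusted p = 0.0347). Dusp1, a phosphatase that ends MAP kinase signals, fell by 1.0 ± 0.21. Of 11 measured MAP kinase feedback inhibitors it was the only 1 that fell (median 0.03), and 1 rose, none with line as a block. The NF-kB inhibitor Nfkbia fell by 0.86 ± 0.14. Of 17 NF-kB and inflammatory genes 3 fell (median -0.39), and 6 with line as a block. Without the dox array of line B6-3 or the no-dox array of line F6-6 5 of these fell. Of 18 glycolysis and hypoxia genes 5 fell (median -0.28), and 1 without the no-dox array of line B6-3, 2 without that of F6-6 or the dox array of B6-2 and 3 without the dox array of B6-1. Slc2a3, a glucose carrier, had 5.60, 5.65, 5.64 and 5.82 with dox, against 6.90, 7.27 and 7.35 without dox, and fell by 1.50 ± 0.20. Among 15 interferon response genes 1 fell, Mx1 by 0.38 ± 0.10, and none without the no-dox array of line B6-2 or B6-3. Among 13 cholesterol synthesis genes 1 fell, Mvd by 0.50 ± 0.13; none fell without the no-dox array of line B6-3 and 2 without the dox array of line B6-1, and 1 rose without the no-dox array of line F6-6. Among 17 respiratory chain genes 1 rose, Cyc1 by 0.31 ± 0.09. Without the dox array of line F6-6 2 rose, and the call of Cyc1 ended without any other 1 of the 7 arrays (adjusted p between 0.0507 and 0.114). The counts of interferon, cholesterol and respiratory chain genes lay near the shares over all genes, of which 5.75% rose and 5.18% fell.

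Among genes tied to invasion and to epithelial-mesenchymal transition (EMT), which the series title names, more fell than rose. The counts give no direction of EMT, which was not tested. Tgfbi and Mmp8, which fell, are also on the monocyte and late neutrophil lists. Of 23 EMT and matrix genes 6 fell and 1 rose (median -0.09). Fn1, fibronectin, had 6.53, 6.67, 5.66 and 6.34 with dox, against 9.16, 9.87 and 8.52 without dox, and fell by 2.88 ± 0.40 (adjusted p = 3.32e-05). S100a4, a calcium-binding protein of motile cells, had 8.38, 9.17, 6.99 and 8.59 with dox, against 10.54, 11.29 and 9.73 without dox, and fell by 2.24 ± 0.34. Both were lowest in line F6-6. Cdh1, E-cadherin, fell by 0.95 ± 0.17, and Tcf4, an E protein, had 8.06, 8.35, 8.23 and 8.17 with dox, against 6.98, 7.15 and 7.08 without dox, and rose by 1.13 ± 0.11. The EMT factors Zeb1 (-0.22 ± 0.14), Zeb2 (0.16 ± 0.11), Snai1 (0.13 ± 0.10) and Twist1 (-0.15 ± 0.10) did not pass; Zeb1 had 4.82, 5.07, 5.08 and 4.74 with dox, against 5.42, 5.0 and 5.02 without dox, all below the median of all probe sets. Of 16 genes of the urokinase system and other pericellular proteases 7 fell and none rose (median -0.24), and 4 without the no-dox array of line B6-3. Plaur, the urokinase receptor, had 6.56, 6.55, 6.71 and 6.65 with dox, against 7.97, 8.51 and 7.97 without dox, and fell by 1.53 ± 0.22. Among 14 Eph receptors and ephrins, Epha7 rose and Epha1 fell. Epha7 had 8.43, 8.37, 6.55 and 7.59 with dox, against 5.0, 5.23 and 4.74 without dox; it rose by 2.74 ± 0.28 (6.68-fold), with line F6-6 lowest among the dox arrays.

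Genes outside the lists were also among the largest changes. Ifitm6, an interferon-induced membrane protein of myeloid cells, had 4.10, 4.82, 4.37 and 4.58 with dox, against 7.76, 8.61 and 8.21 without dox, and fell by 3.73 ± 0.35. Vcan, the proteoglycan versican, had 6.74, 7.63, 5.04 and 7.15 with dox, against 10.21, 10.88 and 9.43 without dox, and fell by 3.54 ± 0.45. The scavenger receptor gene Msr1 had 7.65, 7.98, 5.22 and 7.05 with dox, against 10.30, 10.84 and 9.06 without dox, and fell by 3.09 ± 0.55. The groups did not overlap, as the choice of the largest changes required, and line F6-6 was the lowest for Vcan and Msr1. Slco4c1, an organic anion carrier, fell by 3.06 ± 0.43. The stefin genes Stfa3 and Stfa2, inhibitors of cysteine proteases with close copies next to them, fell by 3.42 ± 1.01 and 3.23 ± 0.74; the call of Stfa3 ended without the dox array of line B6-2 or B6-3 or the no-dox array of line B6-3 or F6-6 (adjusted p between 0.0721 and 0.143). Among the increases, the ATP-gated channel gene P2rx3 had 7.69, 8.32, 8.58 and 8.53 with dox, against 6.35, 6.25 and 6.59 without dox, and rose by 1.89 ± 0.22. Tspan12, a tetraspanin, rose by 1.62 ± 0.28 and was highest in line B6-1, and Cd69, an activation receptor, rose by 1.34 ± 0.20. Snord52, a small nucleolar RNA, rose by 1.32 ± 0.20.

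The size of the change varied between the 3 lines. Over the 2179 called genes, the median size of the difference within a line was 0.44 in B6-2, 0.56 in B6-3 and 0.41 in F6-6. The median over late neutrophil genes was -1.45 in B6-2, -1.51 in B6-3 and -1.66 in F6-6. For monocyte and macrophage genes it was -0.67, -0.98 and -0.92 in that order, for nucleolar genes 0.40, 0.65 and 0.29, and for immediate early genes -0.48, -0.75 and -0.12. Some lists with few calls had no common sign, among them replication genes (0.09, 0.32 and -0.06) and mitosis genes (-0.15, 0.10 and -0.20). These are values of single pairs, with no test.

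The sorted GMP of the series give a scale for these levels, though sorting and culture set them apart from the lines. The median log2 level over the 30 late neutrophil genes lay between 6.57 and 6.94 in the 4 dox arrays, against 9.01 to 9.12 in the 3 no-dox arrays, and was 6.34 over the mean of 4 sorted GMP arrays. For the 10 Hoxa genes the medians lay between 6.53 and 6.75 in dox arrays, against 5.96 to 6.17 in no-dox arrays, and 5.50 in sorted GMP. For the nucleolar genes they lay between 8.79 and 8.94 in dox arrays, against 8.12 to 8.46 in no-dox arrays, and 8.86 in sorted GMP. Meis1 averaged 9.09 ± 0.19 with dox and 6.63 ± 0.24 without dox (SD, n = 4 and 3), and 7.02 in sorted GMP. These are levels of lists and genes set side by side, with no test.

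The dox effect was then compared with that in LT-HSC-derived lines at 48 h, 2 arrays with dox (lines B6-2 and B6-3) and 3 without (B6-2, B6-3 and B6-1), to ask where it depends on the cell of origin. These line names recur among the GMP-derived lines, and whether a shared name marks a shared animal is not stated in the labels. In those lines 88 genes were called (0.441%). The difference between the 2 effects, GMP-derived minus LT-HSC-derived, was called for 46 genes (0.231%), 14 with a more positive effect in GMP-derived lines (0.0702%) and 32 with a more negative one (0.161%), and 1742 genes had an unadjusted p under 0.05. The count depended on the fit: it was 102 with line within origin as a block, 56 with the line name shared across origins as a block, and between 8 and 55 when single arrays were left out. It was 8 without LT-HSC-derived dox replicate 2, 18 without LT-HSC-derived dox replicate 1, 28 without LT-HSC-derived no-dox replicate 3 or the GMP-derived dox array of line B6-2, and 29 without the GMP-derived no-dox array of line B6-3.

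Bcl2 had the lowest adjusted p of this difference. It rose by 1.55 ± 0.10 in GMP-derived lines, against 0.12 ± 0.12 in LT-HSC-derived lines, a difference of 1.43 ± 0.16 (limma adjusted p = 8.76e-05). Clec4b2, a C-type lectin receptor, had 5.82, 6.14, 4.97 and 4.97 with dox in GMP-derived lines, against 9.12, 8.77 and 9.10 without dox. Its effect of -3.53 ± 0.26 stood against -0.42 ± 0.31 in LT-HSC-derived lines, a difference of -3.11 ± 0.40 (adjusted p = 0.000691). These 2 calls held in every alternative run. Chil3 (-3.45 ± 0.33 against -0.65 ± 0.39), C5ar1 (-3.0 ± 0.25 against -0.97 ± 0.29), Pglyrp1, a peptidoglycan-binding granule protein (-1.75 ± 0.22 against 0.14 ± 0.26), and Cd177, a neutrophil surface protein (-1.90 ± 0.23 against -0.19 ± 0.27), also fell more in GMP-derived lines (adjusted p = 0.014, 0.0183, 0.0124 and 0.0377). Snord47 (1.02 ± 0.10 against 0.12 ± 0.12) and Parp8 (0.94 ± 0.10 against 0.14 ± 0.12) rose more (adjusted p = 0.0109 and 0.023). Each of these 6 calls ended without LT-HSC-derived dox replicate 2 (adjusted p between 0.13 and 0.196). Mecom went the other way: it differed by 0.12 ± 0.22 in GMP-derived lines, against 2.14 ± 0.27 in LT-HSC-derived lines (difference -2.03 ± 0.35, adjusted p = 0.0109), a call that ended without the same array (adjusted p = 0.158). For Ltf the effects were -4.81 ± 0.51 in GMP-derived and -2.71 ± 0.61 in LT-HSC-derived lines, for Meis1 2.46 ± 0.17 and 1.27 ± 0.20, for Hoxa9 0.99 ± 0.09 and 0.75 ± 0.10, and for Hprt 3.11 ± 0.16 and 3.0 ± 0.20. None of these 4 differences passed (adjusted p = 0.397, 0.0575, 0.694 and 0.975).

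**Figure D5:**
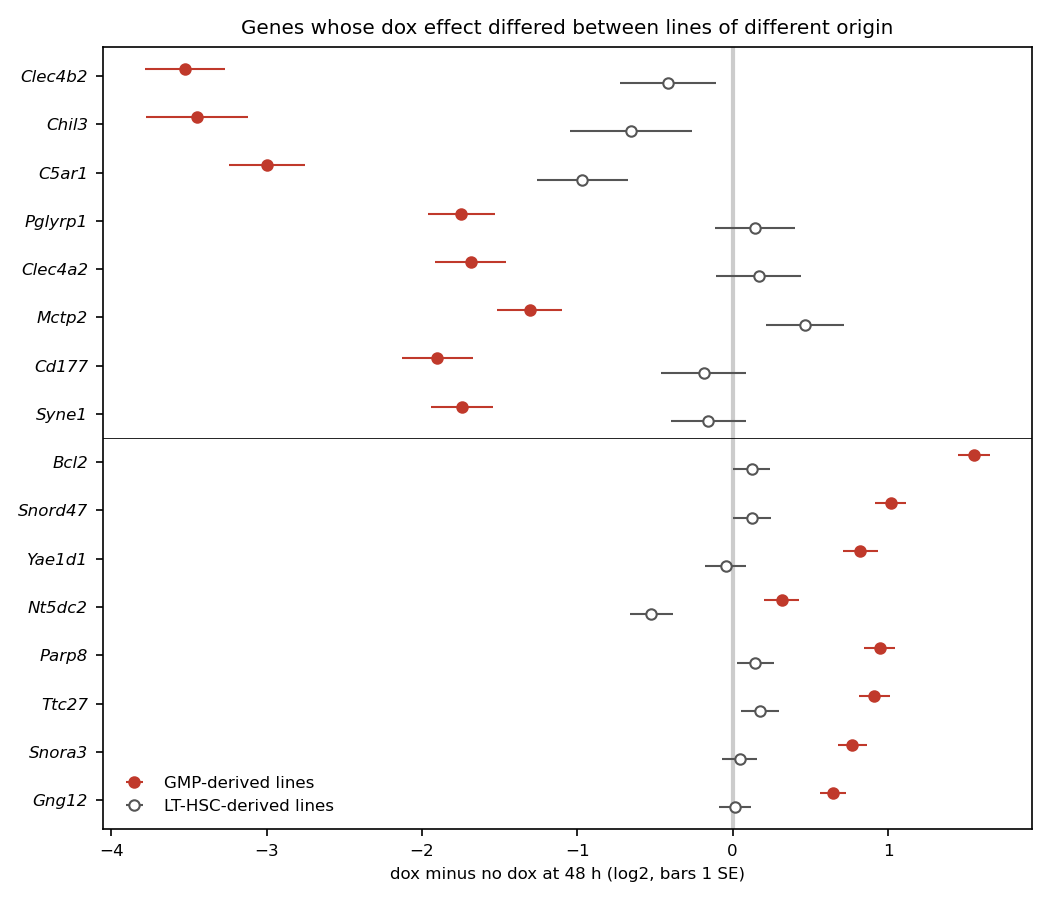
Dox minus no dox (log2, bars 1 SE of the fit) in GMP-derived lines (filled, upper mark of each row) and LT-HSC-derived lines (open, lower mark) at 48 h for the 8 largest called differences each way among genes brighter than the median probe set in both kinds of line. In the upper 8 rows the effect is more negative in GMP-derived lines, led by Clec4b2, and in the lower 8 rows more positive, led by Bcl2; Epha7, dimmer than that in LT-HSC-derived lines, is not drawn.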

How the data were processed

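Affymetrix gene array signals of 26 mouse samples were analysed as the authors deposited them, as log2 values with 1 column per array. Column medians and quartiles were nearly equal, so the values had been normalized between arrays before deposit. The submitters' processing notes name limma and R 3.1.1 but no method of normalization or its role, which stays unknown. Genes were named from GEO's platform annotation; a check of its gene IDs against RefSeq's gene table changed no symbol. Of the probe sets with 1 symbol, the one with the highest mean over all arrays stood for a gene, which left 19937 genes.

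Linear models were fitted by limma (version 3.58.1, R 4.3.3; moderated by eBayes) to all 26 arrays with a mean for each of 8 groups (residual df 18, prior df 5.32), and p-values, all 2-sided, were Benjamini-Hochberg adjusted over all genes. The dox effect of GMP-derived lines was dox minus no dox, and the origin difference subtracted the same effect of LT-HSC-derived lines at 48 h. The fit was tested on simulated data for this comparison over 19937 genes. Shifts of 0.5, 1 and 2 on the log2 scale were given to 67, 67 and 66 genes. Of these 62.7%, 97.0% and 100% were called in that order, and 10 unshifted genes were called. The simulated noise was independent between arrays of a line, unlike the data, and far fewer genes were shifted than were called here. The rates may therefore not carry over. The line names pair 3 dox with 3 no-dox arrays, and deviations from the group means correlated with r of 0.291, 0.326 and 0.401 within lines and from -0.321 to 0.052 between lines. A fit with line as a block (residual df 13) was therefore run beside the main one. The number of arrays limits the precision.

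Members and gene lists (46 lists, 672 distinct genes measured) were chosen with earlier results of these data known, so that a list's direction is no independent evidence. Genes were named by rule: the 15 largest increases and decreases among called genes with no overlap, 1 sign in all 3 lines and the higher group above the median signal, the largest 6 members of each list and all members of lists of up to 15, the 8 largest origin differences of each sign, the neighbours of Hprt and a few genes of interest. Other list members in the text were chosen after their values were seen. Alternatives were quantile normalization, median centring, a filter on dim genes, array weights, a trended prior, the mean of probe sets, fewer groups in the fit, the line block within origin (fixed or random) or by line name across origins (fixed, added after seeing the data) and leaving out each array. Absolute background was not analysed, and raw scanner files were not used.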

Additional observations from a re-analysis of the deposited data

Results flagged for a closer look

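Among 223 genes named in the text, the 4 dox arrays were searched for 1 array whose gap to its nearest neighbour took up a larger share of the group's range than Dixon's 95% critical value for 4 samples. Chance flags about 1 in 20 such groups, and 20 genes were marked, 10 of them in line F6-6, 6 in B6-1 and 2 each in B6-2 and B6-3. In line F6-6 the highest value of the group was 10.07 for Cd33 (8.37 to 8.48 in the other dox arrays), 9.91 for Ngp (8.69 to 8.82), 6.45 for Ly6g (5.07 to 5.24), 8.0 for Msi2 (7.52 to 7.56), 8.21 for Cebpa (7.89 to 7.93), 10.82 for Cdk6 (10.59 to 10.61) and 10.35 for Jmjd1c (10.17 to 10.19). The lowest value in that line was 4.12 for Ccr1 (5.42 to 5.67 in the others), 9.43 for Ccr2 (10.45 to 10.57) and 7.23 for Ncf4 (7.59 to 7.66).

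The unpaired line B6-1 stood apart for Tspan12 at 7.97 (6.58 to 6.69 in the other dox arrays), Hlf at 6.13 (5.90 to 5.94), Phf6 at 7.80 (7.70 to 7.71) and Shmt1 at 7.79 (7.61 to 7.62), all highest, and for Twist1 at 5.25 (5.58 to 5.64) and Gfi1 at 6.68 (6.81 to 6.82), both lowest. Hoxa9 was highest in line B6-2 at 7.57 (7.44 to 7.46) and Itgb2 lowest there at 7.99 (8.18 to 8.22). Cdk4 was highest in line B6-3 at 9.94 (9.75 to 9.78) and Gnl3 lowest there at 10.12 (10.25 to 10.27).

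For 14 genes of the text the dox effect differed between GMP-derived and LT-HSC-derived lines in the limma test of the difference. It was more negative in GMP-derived lines by -3.11 for Clec4b2, -2.79 for Chil3, -2.03 for C5ar1, -1.89 for Pglyrp1, -1.85 for Clec4a2, -1.72 for Cd177, -1.46 for Alcam, -1.20 for Ets1 and -2.03 for Mecom. It was more positive by 2.15 for Epha7, 1.43 for Bcl2, 0.89 for Snord47, 0.80 for Parp8 and 0.48 for Polr1c. The calls of Bcl2, Clec4b2 and Alcam held in every alternative run. The other 11 each ended without LT-HSC-derived dox replicate 2 (adjusted p between 0.0609 for Epha7 and 0.212 for Polr1c), and that of Polr1c also with line as a block within origin (0.0915) or across origins (0.11). Other single arrays mattered too. Of the origin calls recomputed over named and listed genes, 16 ended and 8 held without LT-HSC-derived dox replicate 1. Without LT-HSC-derived no-dox replicate 3, 13 ended and 11 held.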

How the results depend on the processing

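Of 13247 recomputed differences of the 713 named and listed genes, 374 changed sign, all of them called in neither fit. Of the 280 called genes, 87 lost the call in at least 1 alternative, 19 of these in one that kept all 26 arrays. The count of 2179 lay between 1996 (median centring) and 2676 (array weights) with all 26 arrays, was 2098 with only the cultured arrays and 1740 with only the groups compared, and was 2234 (1027 up and 1207 down) with line as a replicate block. Leaving out single arrays gave 1224 to 2115 calls (589 to 1116 up, 635 to 999 down), the lowest without the no-dox array of line B6-3. The origin difference depended more on the fit. Its 46 calls (14 more positive, 32 more negative) became 102 (38 and 64) with line as a fixed replicate block, 87 (32 and 55) with array weights, 21 (5 and 16) with only the groups compared and 15 (5 and 10) with only the cultured arrays. The more positive calls were 23 with a random block, 24 with the filter on dim genes and 8 with median centring. Without single arrays there were 8 to 55 calls (2 to 28 more positive, 6 to 38 more negative), the fewest without LT-HSC-derived dox replicate 2. Fewer arrays leave fewer residual df (with only the groups compared 5 for the dox effect and 8 for the origin difference); other causes were not tested. Apart from the genes named beside their block values, the block within origin changed no call among genes named in the report. A block by line name across origins, chosen after seeing the data, gave 2277 calls of the dox effect and 56 of the origin difference (17 and 39), and Fos passed with it (adjusted p = 0.0416).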

Other observations

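Small nucleolar RNAs, which guide chemical marks on ribosomal RNA, were grouped after their values were seen, so the group has no test. Of 54 measured snoRNA genes 24 rose and none fell, at a median difference of 0.65 against 0.014 over all genes tested. Snord87 had 9.34, 9.22, 9.64 and 9.74 with dox, against 8.32, 7.94 and 8.79 without dox, and rose by 1.13 ± 0.18 (limma adjusted p = 0.000108). Snora74a rose by 1.28 ± 0.20, Snord33 by 1.24 ± 0.28 and Snord57 by 1.18 ± 0.27; the Snord57 call ended without the no-dox array of line B6-3 (adjusted p = 0.0622). In these 4 genes the groups did not overlap. Most snoRNAs lie in introns of host genes, and whether their probe sets read the host transcript was not analysed.

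Further genes of myeloid cells outside the lists fell, and these too were picked after their values were seen. C3ar1, the receptor of the complement fragment C3a, had 6.25, 7.25, 5.15 and 6.11 with dox, against 8.65, 10.13 and 8.49 without dox, and fell by 2.90 ± 0.41 (adjusted p = 3.88e-05). The macrophage elastase gene Mmp12 fell by 2.45 ± 0.46 and the lipoprotein lipase gene Lpl fell by 2.38 ± 0.33. The calcium-binding protein gene S100a6 fell by 2.46 ± 0.34 and the iron exporter gene Slc40a1 fell by 1.64 ± 0.29. The inhibitory receptor gene Cd300lf fell by 1.83 ± 0.20 and the adhesion molecule gene Alcam fell by 1.87 ± 0.12. Among the increases, Bcat1, a transaminase of branched-chain amino acids, had 6.98, 7.11, 7.39 and 7.51 with dox, against 6.05, 6.31 and 6.28 without dox, and rose by 1.03 ± 0.15. The RNase P subunit genes Rpp40 and Rpp38 rose by 1.09 ± 0.15 and 0.91 ± 0.18.

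Of the 2179 called genes, 1880 were also called with line as a block. Some list members passed with the block alone. Vldlr, a lipoprotein receptor, was higher with dox within the lines by 0.75, 0.80 and 1.61 (adjusted p = 0.203 without the block and 0.000586 with it). Erg, a stem cell factor, was higher by 0.41, 0.37 and 0.31 (0.506 and 0.0181), Flt3 by 0.64, 0.53 and 0.77 (0.304 and 0.0384), and Il1b differed by -1.22, -1.61 and -0.44 (0.172 and 0.0162).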
